A study of Mus musculus with 9 samples.

Results

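The transcripts described here encode the enzymes of glycolysis in mouse adipose tissue. The gene names Hk2, Gpi1, Pfkl, Aldoa, Tpi1, Gapdh, Pgk1, Pgam1, Pkm and Ldha, 10 in all, were looked up in the count table by symbol, and 9 were found among its 3958 genes. Gapdh was not analysed here. All libraries came from adipose tissue of male C57BL/6J mice, labelled day 21, with 3 libraries in each of 3 groups. The EA libraries (5, 7 and 8) carry the treatment label EA, which the series design expands as a high-fat diet with electroacupuncture, a current passed through inserted needles. The MPX libraries (2, 5 and 7) and the CPX libraries (4, 6 and 8) carry no treatment label. By the design text 1 of these 2 groups had the high-fat diet and the other the normal diet, but no label says which, so the prefixes are kept and no difference is read as an effect of diet. The fat depot and the age of the mice are not stated, and no label says that libraries are separate mice, so p-values measure the spread between libraries only.

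Glycolysis splits glucose into a pair of pyruvate molecules in the cytosol. Hexokinase traps glucose as its phosphate, phosphofructokinase commits it, aldolase and triose phosphate isomerase make the trioses, and the later enzymes recover ATP. In fat cells insulin raises glucose entry, and the triose stage also supplies glycerol phosphate for triglyceride, while lactate dehydrogenase turns surplus pyruvate into lactate. Several of these genes are textbook targets of the hypoxia-inducible factors, whose core binding motif is ACGTG, and CACGTG is a motif of other basic helix-loop-helix factors.

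Regions just upstream of an annotated start are shown for 3 members. These genes stood for different patterns over the libraries (Hk2 and Ldha low in CPX 6, Pgk1 not), and each region holds a copy of ACGTG. The Ldha region lies before a start inside the gene span, and another Ldha window (46846832 to 46847131) holds no ACGTG. Sequences are RefSeq windows on GRCm38.p6, read 5′ to 3′ on the strand of the gene and ending at the base before an annotated start. Capitals mark ACGTG, its reverse complement CACGT, and the overlapping CACGTG.
Hk2 (chr6:82774455-82774704, minus strand): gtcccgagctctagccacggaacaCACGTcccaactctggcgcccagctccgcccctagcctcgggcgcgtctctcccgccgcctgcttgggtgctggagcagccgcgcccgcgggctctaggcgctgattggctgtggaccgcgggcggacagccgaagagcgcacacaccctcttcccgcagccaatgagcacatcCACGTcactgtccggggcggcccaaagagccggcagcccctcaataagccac
Pgk1 (chrX:106186850-106187099, plus strand): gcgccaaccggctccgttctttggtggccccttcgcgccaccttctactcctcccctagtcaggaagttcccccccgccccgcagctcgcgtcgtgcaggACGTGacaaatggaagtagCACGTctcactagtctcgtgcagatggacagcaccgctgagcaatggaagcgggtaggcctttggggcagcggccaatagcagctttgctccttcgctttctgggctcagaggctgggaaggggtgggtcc
Ldha (chr7:46845554-46845803, plus strand): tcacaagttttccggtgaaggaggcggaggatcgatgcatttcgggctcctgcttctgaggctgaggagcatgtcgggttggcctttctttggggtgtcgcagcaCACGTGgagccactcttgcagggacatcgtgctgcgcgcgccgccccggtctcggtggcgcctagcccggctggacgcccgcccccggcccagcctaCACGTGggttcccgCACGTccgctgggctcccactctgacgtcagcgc

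Hk2 and Pgk1 each held ACGTG 2 times, counting both strands, and Ldha held the palindrome CACGTG 2 times besides 1 further copy of ACGTG. In windows of 300 bases around the annotated starts, 6 of the 9 members held ACGTG in at least 1 window (Hk2, Aldoa, Pgk1, Pgam1, Pkm and Ldha). By window this was 7 of 13, against 19.6% of all 32851 windows. The Aldoa windows at 126799205 to 126799504 and at 126799129 to 126799428 overlap and hold the same copy of ACGTG, so the 7 are not separate sites. The variant GCGTG was in 4 of 13 windows, against 32.4% of all, and CACGTG in 1 of 13, against 7.15% of all. Tpi1, Gpi1 and Pfkl held no ACGTG in these windows. A match is a description of letters and does not show binding.

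Levels are CPM, the share of a gene in the listed counts of its library after TMM scaling (edgeR's cpm). The table holds the most abundant genes only, with 12115183 to 14208853 counts per library. Libraries within CPX stood apart from each other: Spearman's rho over genes was 0.187 between CPX 4 and CPX 6, and at least 0.795 within EA and 0.873 within MPX. The 18 listed adipocyte markers (such as Adipoq and Plin1, all present) summed to 48997 to 79171 CPM in EA, 76071 to 85953 CPM in MPX and 14617 to 147636 CPM in CPX, lowest in CPX 6 and highest in CPX 4. The 10 of 14 B cell markers present summed to 3129 to 7472 CPM in EA, 1776 to 1973 CPM in MPX and 2372 to 17773 CPM in CPX, highest in CPX 6, and none was at 0 in any library. In CPX 8, Ighm alone held 4667 of the 6243 CPM. The mean log2 deviation of these markers from their averages, which weights them equally, was 1.96 to 3.44 in EA and -3.84 to -2.31 in MPX. In CPX it was -2.28 in CPX 4, 4.55 in CPX 6 and -1.02 in CPX 8. The 12 of 15 mitochondrially encoded genes present were highest in CPX 4, where they exceeded their average by 2.06 log2 units. All 10 B cell and all 12 of 14 macrophage markers present had differences above 0 in EA against MPX, 8 and 2 of them with an unadjusted p under 0.05. Of all genes, 48.6% had differences below 0 and 5.1% an unadjusted p under 0.05 in that comparison. Of the 18 adipocyte markers, 13 had differences below 0 and 5 above 0 in EA against MPX. Their median was -0.49 on the log2 scale, and 0 had an unadjusted p under 0.05. All 9 of 10 endothelial markers present had differences below 0 in that comparison, with a median of -0.28. Cldn5, at -1.19 on the log2 scale, was the 1 endothelial marker with an unadjusted p under 0.05. Most members were below 0 as well, and the part of adipocytes or endothelial cells in the members' values was not tested. Fibroblast (9 of 10) and red cell (2 of 8) markers were also present, with no unadjusted p under 0.05 there. The table used lists 0 of 22 skeletal muscle, 0 of 8 brown fat, 0 of 14 retina and 0 of 13 epididymis and testis markers, which were not analysed here. In bulk tissue, fewer cells of a type and less RNA per cell cannot be told apart.

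In the authors' annotation columns, on mm10, the members lie on several autosomes and the X chromosome. On chromosome 6, Hk2 (ENSMUSG00000000628) spans 82725025 to 82774454 and Tpi1 (ENSMUSG00000023456) 124810586 to 124814296, both on the minus strand. On chromosome 7, Gpi1 (ENSMUSG00000036427) spans 34201330 to 34230336 and Aldoa (ENSMUSG00000030695) 126795234 to 126800751, both on the minus strand, and Ldha (ENSMUSG00000063229) 46841475 to 46855627 on the plus strand. Pfkl (ENSMUSG00000020277) spans 77986947 to 78010083 of chromosome 10 (minus strand), Pkm (ENSMUSG00000032294) 59656368 to 59679375 of chromosome 9 (plus strand), Pgam1 (ENSMUSG00000011752) 41911871 to 41918664 of chromosome 19 (plus strand) and Pgk1 (ENSMUSG00000062070) 106187100 to 106203699 of the X chromosome (plus strand). In GENCODE M21, Hk2, Gpi1, Aldoa and Tpi1 overlap a gene on the other strand and Pkm 1 on its own strand, and without a stated strand setting reads of overlapping genes cannot be told apart. These 9 genes hold 14389 (Hk2) to 167019 (Aldoa) counts over the 9 libraries.

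The members stood at very different transcript levels. To compare genes, CPM were divided by the gene length in the table, in kilobases. How that length is defined is not given in the sources used here, and part of the order depends on it. Without the division, Gpi1 (length 6452 bases) averaged 273.8 CPM in EA, above Pgam1 (170.0) and Pgk1 (177.1), and likewise in MPX and CPX. By mean CPM in each group, Aldoa and Ldha were also highest and Hk2 and Pfkl also lowest. Aldoa, the aldolase of muscle and fat, was highest with 491.2 ± 221.2 CPM per kb (SD over 9 libraries). Ldha, the lactate dehydrogenase subunit that favours lactate formation, followed with 290.3 ± 104.4 CPM per kb, and lay below Aldoa in 9 of 9 libraries. Tpi1, which interconverts the triose phosphates, had 162.7 ± 70.1 CPM per kb and lay below Ldha in 9 of 9 libraries. Pkm (94.4 ± 15.5 CPM per kb), which makes pyruvate and ATP, Pgam1 (94.2 ± 17.5), the phosphoglycerate mutase, and Pgk1 (81.5 ± 14.8), which makes the first ATP, lay within each other's spread. Pkm exceeded Pgam1 in only 3 of 9 libraries, Pgam1 exceeded Pgk1 in 8, and Tpi1 exceeded Pkm in 7. Gpi1, which turns glucose phosphate into fructose phosphate, had 42.9 ± 7.12 CPM per kb, with a range that did not reach that of Hk2. Hk2 and Pfkl were the lowest members. Hk2, the insulin-responsive hexokinase of muscle and fat, had 20.4 ± 7.63 CPM per kb, and Pfkl, the liver-type phosphofructokinase, 19.6 ± 4.49. Isozymes outside the members, such as Pfkp (9.31 ± 1.45 CPM per kb), are not part of these values. Hk2 exceeded Pfkl in 5 of 9 libraries, so the order of these genes was not resolved.

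**Figure D1:**
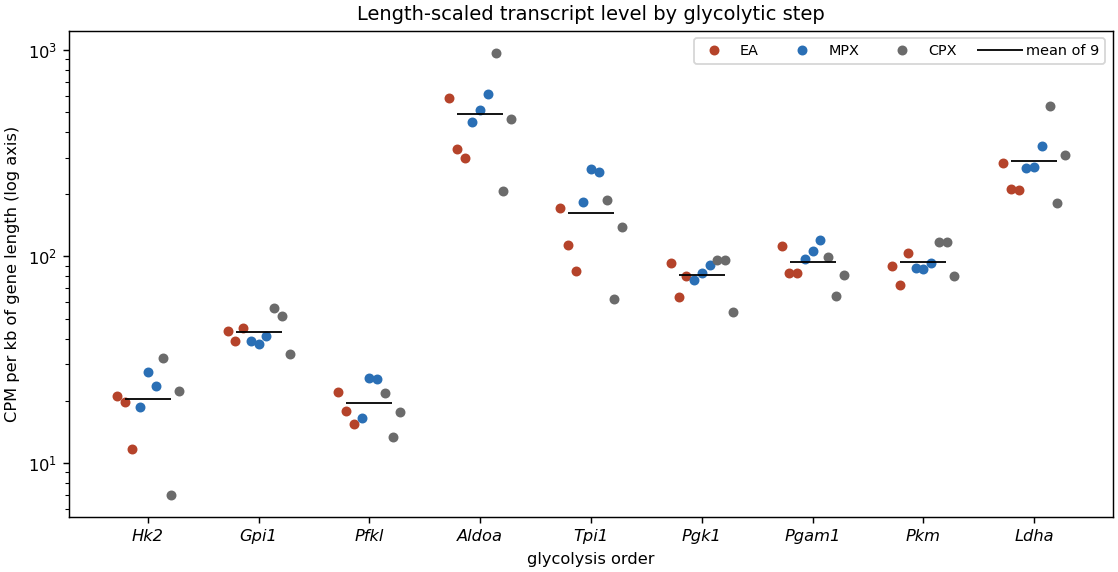
Transcript level per kb of gene length (CPM per kb, log axis) for the 9 members in the order of the pathway, with 1 point per library coloured by group and a bar at the mean of the 9 libraries. Aldoa and Ldha lie highest, and Hk2 and Pfkl lowest.

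The members varied from library to library, and not all of them in the same way. Hk2, Pfkl, Aldoa, Tpi1, Pgam1 and Ldha had their lowest value in CPX 6, the library with the lowest sum of adipocyte markers. Gpi1, Pgk1 and Pkm did not: in CPX 6 they stood 0.28, 0.27 and 0.33 log2 units above their own average, and Pkm had its highest value there. In CPX 4, all 9 members were above their own mean after TMM scaling, and 5 (Hk2, Gpi1, Aldoa, Pgk1 and Ldha) had their highest value. This depends on the TMM factor of CPX 4, 0.753 against 0.981 to 1.10 elsewhere, which raises its CPM. Before scaling, Gpi1 and Pgk1 held 3832 and 2285 of 14027981 listed counts in CPX 4. In CPX 6 they held more, 4335 and 2817, of only 12115183 listed counts. In EA 8, the library with the next lowest sum of adipocyte markers, Tpi1 (-0.79), Hk2 (-0.69) and Aldoa (-0.59) were below their averages, in log2 units. The ratio of highest to lowest library ran from 1.62 (Pkm) to 4.63 (Aldoa), with a median of 1.95 over the members, against 2.67 over all genes. Beside this, adipocyte markers deviated by -2.16 in CPX 6, -0.43 in EA 8 and 1.09 in CPX 4 on the log2 scale; their part in the members' levels was not tested.

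**Figure D2:**
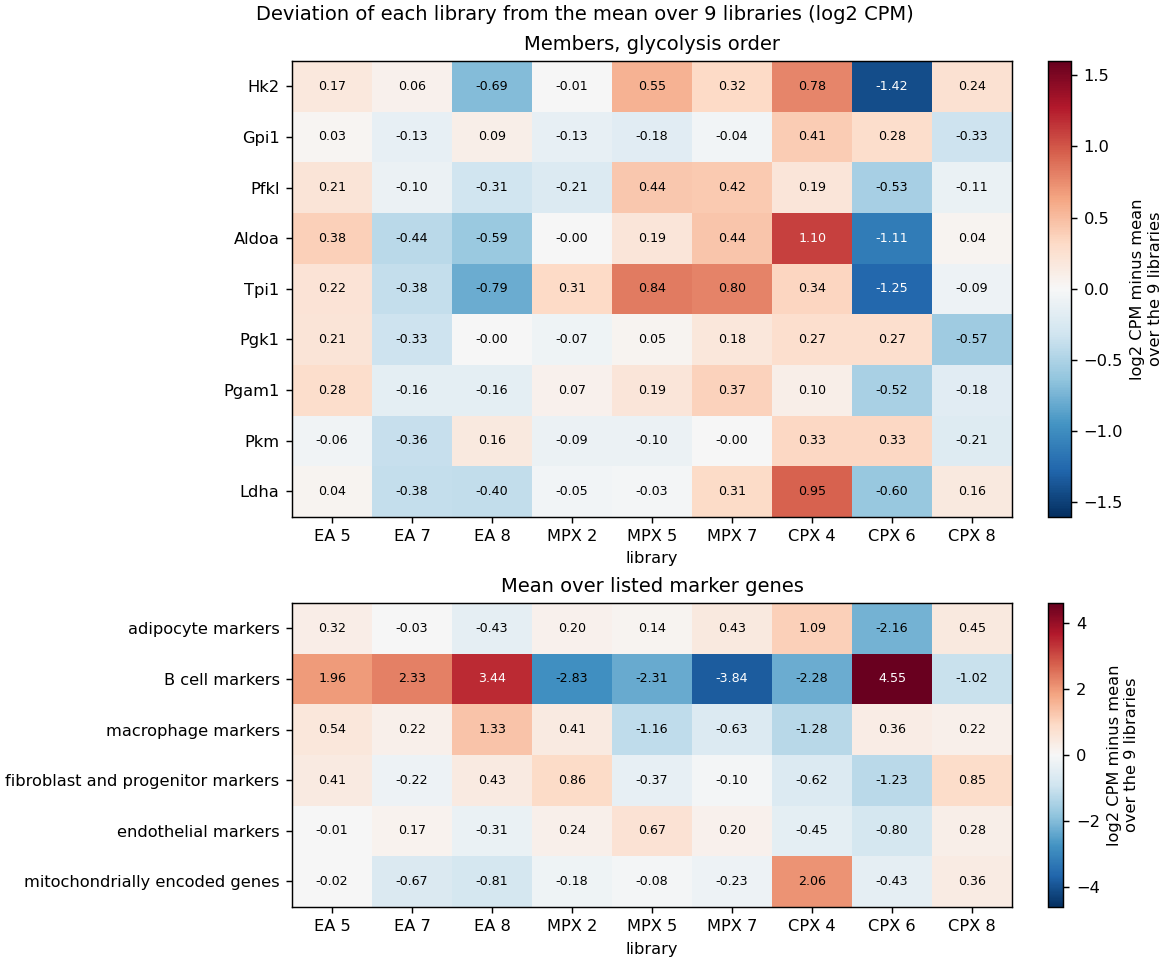
Deviation of log2 CPM from the mean over the 9 libraries (columns), for the 9 members in the upper panel and for the mean over listed marker genes in the lower panel, with a separate colour scale for each. Hk2, Aldoa and Tpi1 are at -1.42, -1.11 and -1.25 in CPX 6, where Gpi1, Pgk1 and Pkm lie above their averages.

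Within groups the members were steadiest in MPX. Their median coefficient of variation was 18.4% in EA, 14.6% in MPX and 29.8% in CPX, against 14.9%, 10.8% and 43.0% over all genes in the same order (n = 3 libraries each). In CPX the range over members was wide, from 20.0% to 70.6%, the highest in Aldoa. Pkm in MPX was the steadiest, with 3.63%.

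Adipose tissue after electroacupuncture (EA) was compared with MPX, a group without it. The member that stood lowest in EA was Tpi1, with 472.7, 312.5 and 235.3 CPM in EA 5, 7 and 8, against 505.2, 726.5 and 708.1 CPM in MPX 2, 5 and 7. Every EA library lay below every MPX library, with a narrow gap between EA 5 and MPX 2. Tpi1 had a mean of 340.1 ± 121.1 CPM in EA against 646.6 ± 122.8 CPM in MPX (SD, n = 3 each), or a difference on the log2 scale of -0.93 (SE 0.44), which did not pass edgeR's quasi-likelihood test over all genes (adjusted p = 0.775). Tpi1 overlaps Spsb2 on the other strand, as given above.

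No member passed: edgeR called 0 of the 9 members at an adjusted p under 0.05, against 0.0% of all 3958 genes. At an unadjusted p under 0.05 there were 0 members, against 5.10% of all genes (202), and DESeq2 and limma voom called 0 members as well, with 49 and 0 of all genes. At an unadjusted p under 0.05 the count depended on the fit: 1 member and 435 genes with DESeq2, 1 member and 1271 genes with the EA and MPX libraries alone, and 1 member and 786 genes without CPX 6. In each of these fits the member was Tpi1. Of the 9 members 8 had differences below 0, against 48.6% of all genes, with a median of -0.30 on the log2 scale against 0.012 over all genes. That median was -0.45 without EA 5 and -0.18 without EA 8. These signs are not independent evidence, since the members share the same libraries. Groups did not overlap for 1 member, Tpi1, while they did not overlap for 40.5% of all genes.

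Among the entry enzymes, Hk2 had 126.6, 117.4 and 69.5 CPM in EA 5, 7 and 8, against 111.5, 164.6 and 140.3 CPM in MPX 2, 5 and 7. EA 8 alone lay below the MPX range, and the log2 difference was -0.41 (SE 0.50), or -0.19 without EA 8. Pfkl had 147.8, 119.2 and 102.7 CPM in EA, against 110.0, 172.6 and 171.1 CPM in MPX, in the same order of libraries. The groups overlapped, since MPX 2 was below EA 5 and EA 7, and the log2 difference was -0.30 (SE 0.27), or -0.52 without MPX 2, -0.45 without EA 5 and -0.18 without EA 8. Gpi1 was the exception with a positive difference: 279.6, 250.2 and 291.7 CPM in EA against 250.3, 241.8 and 266.3 CPM in MPX, or a difference on the log2 scale of 0.12 (SE 0.24), well within its error. It was 0.056 to 0.18 with 1 library left out and 0.21 with column sums.

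Aldoa, which splits fructose bisphosphate, had 1703, 967.7 and 868.4 CPM in EA 5, 7 and 8, against 1307, 1492 and 1776 CPM in MPX 2, 5 and 7. EA 5 lay inside the MPX range and the other 2 EA libraries below it, and the log2 difference was -0.37 (SE 0.55), or -0.73 without EA 5 and -0.19 without EA 8. Ldha showed the same arrangement, with 939.7, 705.7 and 695.2 CPM in EA against 885.6, 894.1 and 1136 CPM in MPX, or a difference on the log2 scale of -0.32 (SE 0.41). Pgam1 had 205.8, 152.0 and 152.1 CPM in EA against 178.1, 194.0 and 219.9 CPM in MPX (-0.22, SE 0.23 on the log2 scale), again with EA 5 inside the MPX range, and -0.38 without EA 5, -0.14 without EA 7 or without EA 8. Pgk1 had a mean of 177.1 ± 32.6 CPM in EA against 186.9 ± 15.7 CPM in MPX (SD, n = 3 each). For Pkm the means were 444.5 ± 79.8 CPM in EA and 446.9 ± 16.2 CPM in MPX. Their log2 differences, -0.078 (SE 0.27) and -0.0079 (SE 0.26), were 0.018 and 0.092 with column sums in place of TMM, which also put the median of all genes at 0.11.

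**Figure D3:**
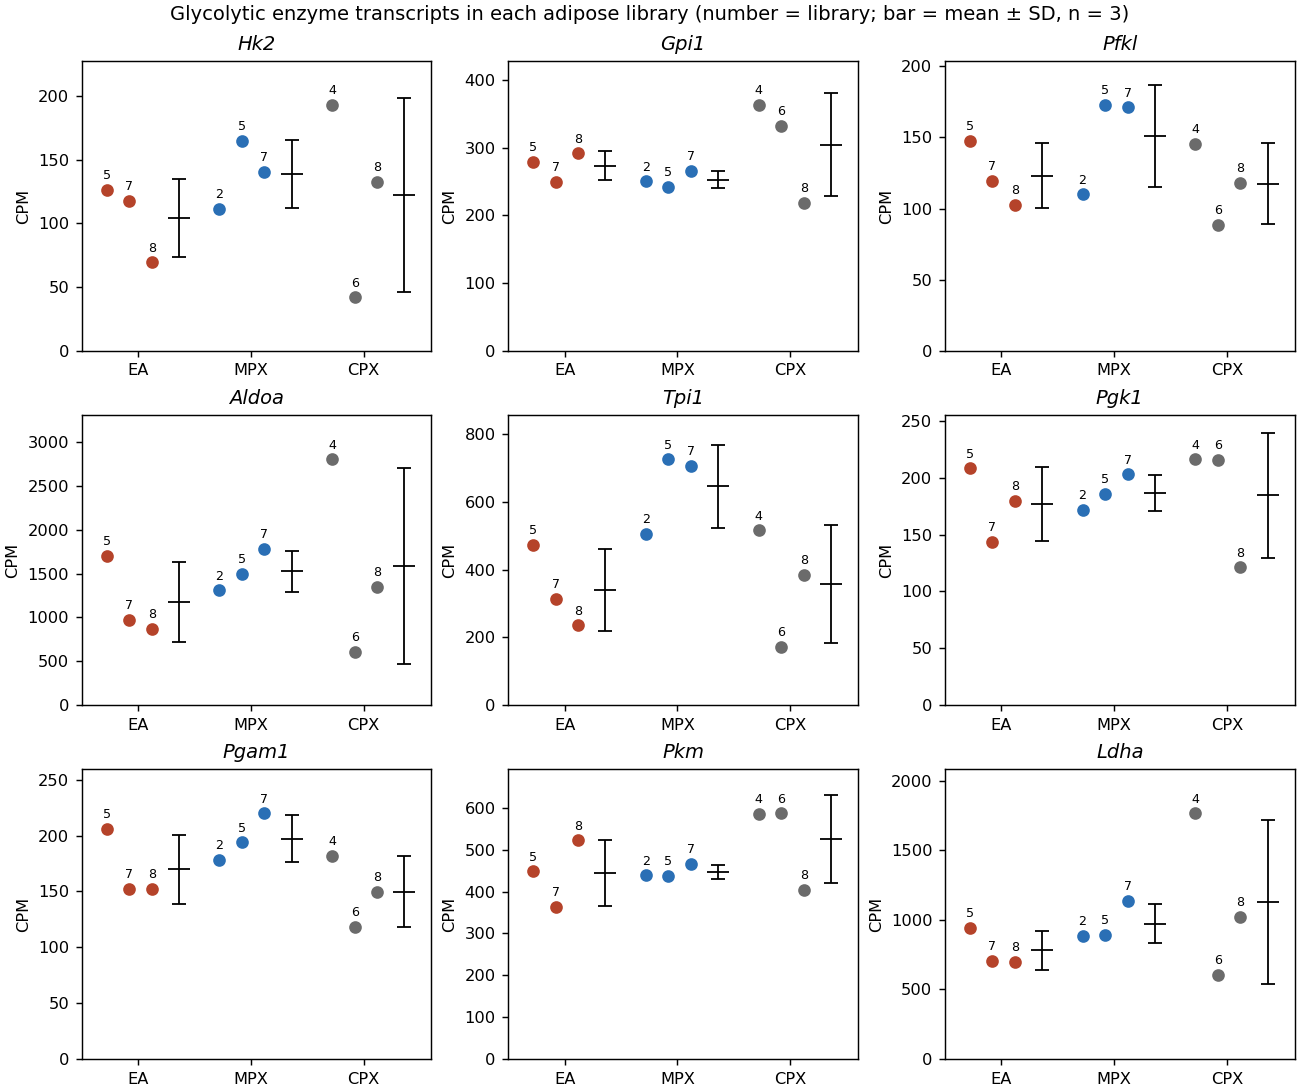
CPM of the 9 members in each library (points, numbered by library) in EA, MPX and CPX, with the mean and SD of 3 libraries beside them and axes that start at 0. For Tpi1 the EA points, at most 472.7 CPM, lie below the MPX points, at least 505.2 CPM; in the other panels EA and MPX overlap.

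The 9 members summed to 4532, 3131 and 3117 CPM in EA 5, 7 and 8, against 3958, 4508 and 5087 CPM in MPX 2, 5 and 7. EA 7 and EA 8 lay below the MPX range and EA 5 within it. The adipocyte markers had the lowest sums in the same EA libraries, 61365 CPM in EA 7 and 48997 CPM in EA 8, against at least 76071 CPM in MPX, and 79171 CPM in EA 5. The mean log2 deviation of the 18 markers, which weights them equally, was -0.028 in EA 7, -0.43 in EA 8 and 0.32 in EA 5, against 0.14 to 0.43 in MPX. It is taken from the average of all libraries, which includes CPX 6 at -2.16, and only CPX 6 and EA 8 lay below EA 7. In EA 7, 8 of 9 members were below their own mean. Whether this difference in markers accounts for any of the difference in the members was not tested. With CPX 6 and EA 8, the libraries with the lowest adipocyte marker sums, left out (chosen after seeing the data), the member median was -0.20 and Tpi1 was at -0.74 (edgeR adjusted p = 0.473).

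Between MPX and CPX, the groups without electroacupuncture, Tpi1 again stood furthest apart, with 505.2, 726.5 and 708.1 CPM in MPX 2, 5 and 7, against 516.1, 170.8 and 383.3 CPM in CPX 4, 6 and 8. CPX 4 lay just inside the MPX range, so the groups overlapped. The log2 difference of MPX minus CPX was 0.86 (SE 0.44, edgeR adjusted p = 0.413), and it was 0.52 without CPX 6 and 1.25 without CPX 4. Pgam1 had 178.1, 194.0 and 219.9 CPM in MPX against 181.7, 118.4 and 149.4 CPM in CPX, or a difference on the log2 scale of 0.40 (SE 0.23), and Pfkl a log2 difference of 0.36 (SE 0.27). Gpi1 (-0.27, SE 0.24) and Pkm (-0.23, SE 0.26) lay on the other side of 0 on the log2 scale, with 252.8 ± 12.5 CPM in MPX and 304.7 ± 76.1 CPM in CPX for Gpi1 (SD, n = 3 each). Without CPX 6 the difference of Pgam1 was 0.25 and that of Pfkl 0.19, and Pfkl was at 0.58 without CPX 4 or MPX 2. Gpi1 was at -0.087 without CPX 4 and -0.43 without CPX 8, and Pkm at -0.11 without CPX 4 and -0.36 without CPX 8.

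Aldoa and Ldha had wide CPX values that enclosed all MPX values. Aldoa had 1307, 1492 and 1776 CPM in MPX 2, 5 and 7, against 2804, 605.6 and 1346 CPM in CPX 4, 6 and 8. Its log2 difference was -0.056 (SE 0.55); it was 0.68 without CPX 4, the library highest in mitochondrially encoded transcripts, and -0.45 without CPX 6. Ldha had 885.6, 894.1 and 1136 CPM in MPX against 1765, 603.3 and 1023 CPM in CPX, or a difference on the log2 scale of -0.22 (SE 0.41) that became 0.29 without CPX 4. Hk2 had 111.5, 164.6 and 140.3 CPM in MPX against 192.8, 41.9 and 132.8 CPM in CPX; its log2 difference of 0.18 (SE 0.50) became -0.23 without CPX 6. Pgk1 had a mean of 186.9 ± 15.7 CPM in MPX against 184.6 ± 54.9 CPM in CPX (SD, n = 3 each). For each of these 4 genes, leaving out 1 library turned the sign of the difference (for Pgk1 to -0.18 without CPX 8). Column sums in place of TMM also turned that of Aldoa, to 0.17.

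Of the 9 members 5 had differences above 0, against 40.7% of all genes, with a median of 0.018 against -0.11 over all genes on the log2 scale. The member median was 0.58 without CPX 4 and -0.15 without CPX 6. At an unadjusted p under 0.05 there were 2 members and 927 of all genes without CPX 4, and 2 members and 487 of all genes with column sums. None passed edgeR's test (0.0% of all genes did, while DESeq2 called 201 genes and limma voom 0, none of them members), none had an unadjusted p under 0.05, against 13.2% of all genes (522), and none was free of overlap, against 16.2% of all genes.

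EA was also compared with CPX. This comparison shares its EA libraries with the first and its CPX libraries with the second, so it is not separate evidence. Ldha stood furthest from 0 with TMM scaling, with 939.7, 705.7 and 695.2 CPM in EA 5, 7 and 8, against 1765, 603.3 and 1023 CPM in CPX 4, 6 and 8. CPX 4 was well above all EA libraries and CPX 6 below them, and the log2 difference was -0.54 (SE 0.41, edgeR adjusted p = 0.997). It was -0.058 without CPX 4, -0.85 without CPX 6 and -0.25 with column sums, where Pgam1 was further from 0 at 0.41. For Tpi1 the same groups had a mean of 340.1 ± 121.1 CPM in EA against 356.7 ± 174.2 CPM in CPX (SD, n = 3 each), or a difference on the log2 scale of -0.069 (SE 0.44) that was 0.20 with column sums in place of TMM. Of the 9 members 7 had differences below 0, against 61.0% of all genes, and the member median was -0.15 against -0.093 over all genes. The direction of that median was not stable: it was 0.26 without CPX 4 and 0.068 with column sums in place of TMM. Without CPX 6, 1 member had an unadjusted p under 0.05, beside 927 genes. None of the members passed edgeR's test (0.0% of all genes did, while DESeq2 called 5 genes and limma voom 0, none of them members), none had an unadjusted p under 0.05 against 2.96% of all genes (117), and none was free of overlap against 7.18% of all genes.

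**Figure D4:**
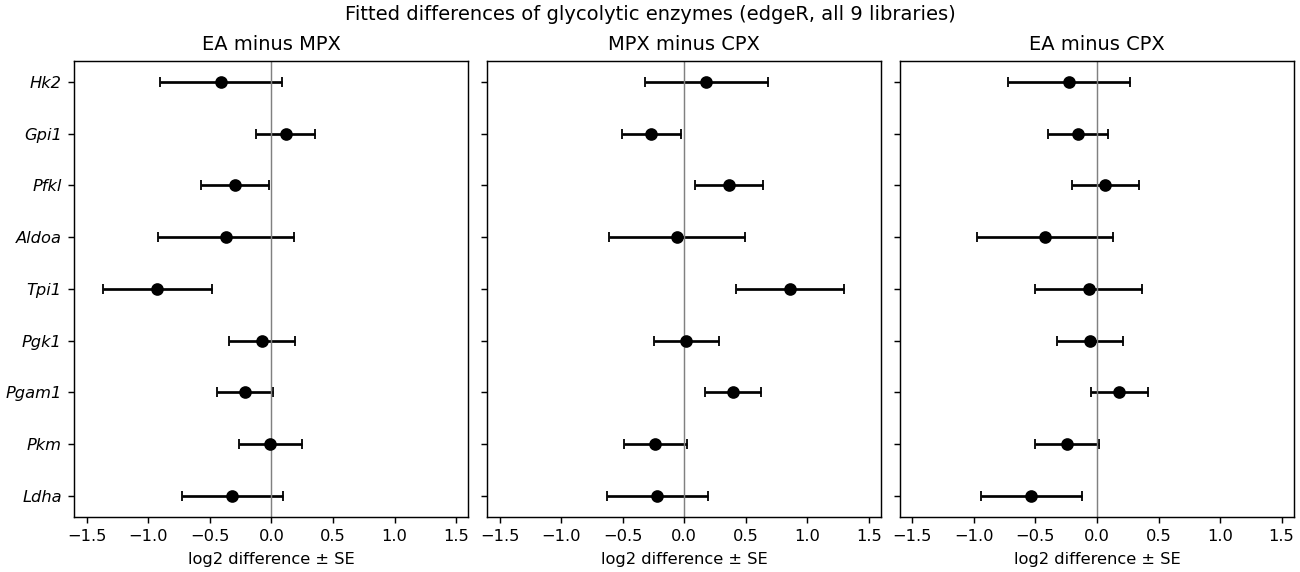
Log2 difference with its SE for the 9 members from the edgeR fit of all 9 libraries, as EA minus MPX, MPX minus CPX and EA minus CPX; the vertical line marks 0. Tpi1 is furthest from 0 in the first (-0.93) and the second (0.86) comparison, and no member passed the test.

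With 3 libraries against 3, an exact two-sided permutation test of log2 CPM cannot give a p below 0.1. Tpi1 in EA against MPX reached that smallest value (exact permutation p = 0.1), and the other members and comparisons did not.

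Other genes of the pathway were counted from lists of related enzymes. Of 24 listed isozymes and further enzymes of glycolysis, 4 were present: Pfkp, the platelet-type phosphofructokinase, Eno1, an enolase, Ldhb, the other lactate dehydrogenase subunit, and Pfkfb3, which makes the allosteric activator of phosphofructokinase. Eno1 had means of 525.0 ± 22.0 CPM in EA, 689.8 ± 184.9 CPM in MPX and 820.0 ± 198.6 CPM in CPX (SD, n = 3 each). In EA against MPX all 4 had differences below 0, and 0 of 4 had an unadjusted p under 0.05 in any comparison. Pfkl exceeded Pfkp per length in every library, by 2.81, 2.50 and 1.54 times in EA 5, 7 and 8, 1.80, 2.53 and 2.16 times in MPX 2, 5 and 7, and 2.64, 1.30 and 1.97 times in CPX 4, 6 and 8. The ratio was lowest in CPX 6 and EA 8. This order rests on the listed gene lengths, 6675 bases for Pfkl and 13401 for Pfkp. In CPM without them, Pfkp exceeded Pfkl in EA 8 (133.8 against 102.7), MPX 2 (122.9 against 110.0), CPX 6 (137.4 against 88.6) and CPX 8 (120.4 against 118.2). In the other libraries Pfkp lay below Pfkl. Ldha exceeded Ldhb per length by 5.37 ± 1.38 times in EA, 6.20 ± 0.70 times in MPX and 7.68 ± 2.96 times in CPX (SD, n = 3 each), and by 11.1 times in CPX 6.

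Pfkfb3 followed Tpi1 most closely of all genes that are not members, with a Pearson correlation of log2 CPM of 0.993 over the 9 libraries and 0.989 without CPX 6. This is a description of these libraries, which share tissue and scaling. Pfkfb3 had 922.6, 667.2 and 477.6 CPM in EA 5, 7 and 8, against 1035, 1380.5 and 1275 CPM in MPX 2, 5 and 7, and 966.8, 396.6 and 853.6 CPM in CPX 4, 6 and 8. All EA values lay below all MPX values, as for Tpi1, and CPX 6 was lowest of all. The log2 difference of EA minus MPX was -0.84 (SE 0.41, edgeR adjusted p = 0.775).

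**Figure D5:**
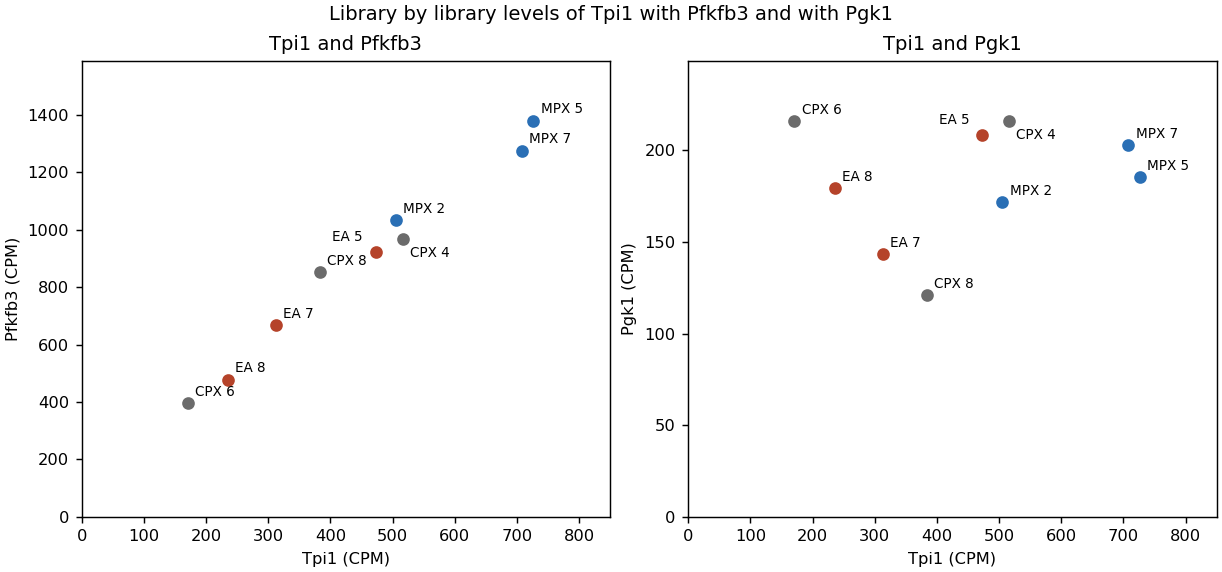
Tpi1 (CPM, horizontal axes) against Pfkfb3 (left) and against Pgk1, a later enzyme of the pathway (right), with 1 point per library coloured by group. Tpi1 and Pfkfb3 rank the libraries almost alike, from CPX 6 (170.8 and 396.6 CPM) to MPX 5 (726.5 and 1380.5 CPM). After TMM scaling, which raises CPX 4, Pgk1 is as high in CPX 6 (216.2 CPM) as in CPX 4 (216.4 CPM).

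The gene most like each other member, by the same measure over 9 libraries, was Hacd2 for Hk2 (0.992), Kars for Gpi1 (0.979), Kpna6 for Pfkl (0.943) and Dld for Aldoa (0.987). For the later steps it was Map2k2 for Pgk1 (0.929), Etfdh for Pgam1 (0.971), Ran for Pkm (0.967) and Mtch2 for Ldha (0.988). The genes most like the mean of the standardized members were Psmc2 (0.958), Cycs (0.954), Lamtor1 (0.945), Atp6v1h (0.937) and Gm10123 (0.937). Among the members themselves, Aldoa and Ldha were most alike (0.950), and Hk2 and Pkm least (-0.369). Without CPX 6 the pair of Hk2 and Pkm was at 0.099 and the least alike were Gpi1 and Tpi1 (-0.033), while Aldoa and Ldha stayed at 0.950.

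In the pentose phosphate branch, which draws on glucose phosphate to make NADPH, 7 of 8 listed genes were present, and 2 had an unadjusted p under 0.05 in EA against MPX, where 5.10% of all genes did. G6pdx, its first enzyme, had a mean of 183.3 ± 47.4 CPM in EA against 343.3 ± 53.8 CPM in MPX (SD, n = 3 each), or a difference on the log2 scale of -0.90 (SE 0.39, edgeR adjusted p = 0.775). Pgd, the later NADPH-making enzyme of the branch, had a mean of 230.7 ± 47.1 CPM in EA against 459.1 ± 132.9 CPM in MPX, or a difference on the log2 scale of -0.99 (SE 0.43, edgeR adjusted p = 0.775). Neither passed the test over all genes.

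Of 9 present genes of 13 in the glycogen and glycerol branches, 2 had an unadjusted p under 0.05 in MPX against CPX, where 13.2% of all genes did. Gpd2, the mitochondrial glycerol phosphate dehydrogenase, had a mean of 60.02 ± 3.96 CPM in MPX against 159.5 ± 75.1 CPM in CPX (SD, n = 3 each), or a difference on the log2 scale of -1.41 (SE 0.38, edgeR adjusted p = 0.362). Gpd1l, a relative of the cytosolic enzyme, had a log2 difference of -0.57 (SE 0.20). In the list of transporters 3 of 10 were present and 0 had an unadjusted p under 0.05; Slc2a4, the insulin-responsive glucose transporter, averaged 241.9 ± 68.7 CPM in EA, 264.5 ± 37.9 CPM in MPX and 262.8 ± 205.9 CPM in CPX.

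Of 16 listed hypoxia-responsive genes outside glycolysis, 8 were present. Pdk1, which restrains entry of pyruvate into mitochondria, averaged 61.2 ± 5.30 CPM in EA, 44.6 ± 9.72 CPM in MPX and 128.9 ± 43.1 CPM in CPX (SD, n = 3 each). Its log2 difference was -1.53 (SE 0.29, edgeR adjusted p = 0.362) in MPX against CPX and -1.08 (SE 0.28, edgeR adjusted p = 0.997) in EA against CPX. P4ha1, a collagen prolyl hydroxylase subunit, had a mean of 107.2 ± 30.7 CPM in EA against 55.3 ± 13.5 CPM in MPX, or a difference on the log2 scale of 0.95 (SE 0.29, edgeR adjusted p = 0.775), opposite in sign to most members. The list's median difference in EA against MPX was -0.078, and 1 of 8 had an unadjusted p under 0.05, against 5.10% of all genes. In MPX against CPX 1 of 8 did (Pdk1), against 13.2% of all genes, and in EA against CPX 2 of 8 (Pdk1 and P4ha1, the last at 0.73, SE 0.29), against 2.96% of all genes. Hif1a, the oxygen-regulated factor subunit, had means of 129.1 ± 29.4 CPM in EA, 131.2 ± 20.3 CPM in MPX and 140.6 ± 45.9 CPM in CPX. Of the 7 listed regulators of glycolysis 5 were present, and of the 7 gluconeogenic enzymes 2, and 0 genes of either list had an unadjusted p under 0.05 in any comparison.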

How the data were processed

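Total RNA of 9 adipose libraries was sequenced after TruSeq preparation, per the labels' protocols, which name retinas although the tissue label is adipose. The submitters' processing notes name HISAT2 2.0.5 and mm10. How reads were assigned to genes, with which annotation and strand setting, is not given in the sources used here. The authors deposited whole-number counts for each gene, with no normalization, as the values show. The table used holds 3958 genes with totals of 3653827 down to 8471, so its column sums are not library depths. Columns were matched to libraries by title, and 11 altered gene names were restored from gene IDs. In GENCODE M21, Aldoa, Tpi1, Pgk1, Pgam1 and Ldha have related pseudogene loci, so the counting could have split their reads.

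All 9 libraries entered 1 fit in edgeR 4.0.16 (R 4.3.3) with a mean per group, TMM (0.753 in CPX 4, 0.981 to 1.10 elsewhere), filterByExpr (3958 kept) and robust quasi-likelihood tests, adjusted after Benjamini-Hochberg over all genes. SE is the log2 difference over the square root of F. Log2 CPM used a prior count of 0.5. DESeq2 1.42.0, limma voom 3.58.1, other scalings, no filter, the groups compared alone, each library left out, and the title number as a block were alternatives; the fit was tested on simulated counts. No 2 libraries of a group were near-identical (chi-square per degree of freedom at least 71.5).

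The members, gene lists and tests were chosen with earlier results of these data known. The text names all members, pathway genes from the lists with an unadjusted p under 0.05 or as isozymes, regulators or transporters, and the genes most alike by Pearson correlation; Slc2a4 and Hif1a were named after their values were seen. Promoter sequences are from RefSeq (GRCm38.p6); all 9 members matched by symbol.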

Additional observations from a re-analysis of the deposited data

How the results depend on the processing

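No member passed an adjusted p of 0.05 under any of the 18 alternatives in EA against MPX or the 17 in each other comparison, and of 414 single-gene values under alternatives that can move a log2 difference 385 kept their sign. In EA against MPX all genes called by adjusted p numbered 0, but 49 with DESeq2, 84 with these groups alone and 0 to 23 with a library left out (23 without CPX 6). In MPX against CPX they numbered 0, but 201 with DESeq2 and 0 to 168 with a library left out (168 without CPX 8). In EA against CPX they numbered 0, but 5 with DESeq2 and 0 to 12 with a library left out (12 without CPX 6). The numbers 5 and 7 are shared by EA and MPX, but nothing says that they pair libraries: deviations from the group means correlated by 0.019 and 0.13. With the number as a replicate block 6 genes were called, 0 of them members (909 genes and 1 member at an unadjusted p under 0.05), and Tpi1 was at -0.90. That fit gives each number its own term, so its difference of EA minus MPX rests on EA 5, EA 7, MPX 5 and MPX 7 alone. Few degrees of freedom remain for the spread, so these counts are uncertain. No paired analysis was possible for the other comparisons because they share fewer than 2 numbers.

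With a library left out, the member median ran from -0.45 (without EA 5) to -0.18 (without EA 8) in EA against MPX, from -0.15 to 0.58 in MPX against CPX and from -0.29 to 0.26 in EA against CPX, the last 2 highest without CPX 4. Log2 differences that changed sign when a library was left out, with their ranges, were, in EA against MPX, Pkm (-0.14 to 0.12) and Pgk1 (-0.21 to 0.053). In MPX against CPX they were Aldoa (-0.45 to 0.68), Ldha (-0.52 to 0.29), Hk2 (-0.23 to 0.70) and Pgk1 (-0.18 to 0.19). In EA against CPX they were Aldoa (-0.83 to 0.28), Tpi1 (-0.41 to 0.30), Pgk1 (-0.29 to 0.078), Hk2 (-0.65 to 0.26) and Pfkl (-0.11 to 0.26). Column sums in place of TMM put the median of all genes at 0.11, 0.0018 and 0.10 in EA against MPX, MPX against CPX and EA against CPX, from 0.012, -0.11 and -0.093 with TMM. They gave a changed sign for Pkm (0.092) and Pgk1 (0.018) in EA against MPX, Aldoa (0.17) in MPX against CPX, and Tpi1 (0.20), Gpi1 (0.064), Pgk1 (0.15) and Hk2 (0.068) in EA against CPX. With limma voom Aldoa (0.17) in MPX against CPX and Hk2 (0.0028) in EA against CPX changed sign. With CPX 6 and EA 8 left out, added after seeing the data, Hk2 (-0.23) in MPX against CPX and Pgk1 (0.042) and Pfkl (-2.6e-05) in EA against CPX did. The cause of these changes was not tested. Filters removed no gene with all 9 libraries, and the robust option does not enter the log2 difference, so those alternatives say nothing about the stability of these values. With 3 libraries a group, small differences are not detectable, and in this fit large ones also failed. The B cell marker Pax5, at 7.25 on the log2 scale in EA against MPX, did not pass (edgeR adjusted p = 0.775). A member that did not pass is therefore not shown to be unchanged or little changed.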
